A study of Homo sapiens with 5 samples.

Results

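The amino acid starvation response was followed here through 10 genes taken by name: ATF4, DDIT3, TRIB3, SESN2, DDIT4, ASNS, PSAT1, PHGDH, CHAC1 and VLDLR. All 10 have a row among the 33538 features of the count tables. The rule lists them by name without a measured value. The 10 genes and the other gene lists used below were nevertheless chosen with earlier results of these data known. When a cell runs short of an amino acid, uncharged transfer RNA activates the kinase GCN2, which phosphorylates the translation factor eIF2alpha. Most protein synthesis then slows, while the mRNA of the transcription factor ATF4 is translated more. ATF4 switches on amino acid synthesis, amino acid uptake and aminoacyl-tRNA synthetase genes, together with regulators that slow growth or, when the stress lasts, promote cell death. Other kinases that sense protein misfolding in the endoplasmic reticulum (ER), viral RNA or heme shortage act on the same factor, so that the response is shared by several stresses.

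Transcripts were counted in KYSE30-Luc-GFP cells, an established human esophageal squamous cell carcinoma line that carries lentiviral luciferase and green fluorescent protein (GFP) and was selected with antibiotics. The parental library came from culture in RPMI1640 with 10% serum, and 4 libraries held GFP+ cells sorted from lungs of NOD SCID mice, which lack functional lymphocytes. The cells had been injected into a tail vein of mice 4 to 5 weeks old, and lungs were taken after 6 h, 48 h, 2 months or 4 months. The mice of the late libraries were thus older when lungs were taken. Cells of several mice were pooled for each library except the last, which came from a single mouse. Lungs were digested with liberase for 1 h at 37 °C and depleted of mouse cells before sorting, steps that the cultured cells did not pass through, so that the lung environment and this handling cannot be told apart in any comparison with culture. Each timepoint is 1 library without a replicate, so no test between libraries was possible. Intervals are 95% intervals (exact Poisson for counts, exact Clopper-Pearson for shares) and cover counting error only, not the spread between mice or cultures.

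After the filter (200 to 8000 genes, at least 1000 unique molecular identifiers (UMIs) and at most 15% mitochondrial UMIs), the libraries kept 9059 parental cells and 1957, 1149, 3322 and 4499 lung cells in order of time, with medians of 12979 to 39076 UMIs per cell and the lowest at 6 h. The culture held 2 classes of cells. A cell was called signature-positive when it held a UMI of C19orf33, S100A14 or RHOD and a UMI of a second set of genes that includes CST6, CD44 and TM4SF1, with none of the 10 genes in either set. This class made up 14.5% of parental cells (1310 cells) and 98.2%, 95.6%, 81.8% and 99.2% of lung cells in order of time, so lung cells were compared with the same class of the culture. Of 7 epithelial markers, 6 or 7 stood at 1 CPM (UMIs of a gene scaled to a total of 1000000 UMIs) or more in the positive class of each library, with KRT5 at 0.0316 CPM in culture and 1748 CPM at 4 months. Summed leukocyte markers reached at most 18 CPM, fibroblast markers at most 5 CPM, and endothelial and red cell markers at most 1 CPM each in these cells. Between libraries, 198 barcodes of kept cells occurred more than once, and leaving them out put the same number of the 10 genes past 2-fold, or a number within 1.5 times of it, in every comparison.

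The promoters show where an ATF4 site could be read from sequence. The CARE core (TGATGNAA, searched on both strands), the letters that ATF4 dimers bind, occurred in the 300 bases around the RefSeq start sites (GRCh38.p14) of 2 of the 10 genes, ASNS and CHAC1, against 4.46% of 27305 genes. The cyclic AMP response element TGACGTCA was in 0 of the 10 and in 2.25% of all genes. Shown are 30 bases around both matches on the strand of the gene, with the core in capitals. The ASNS match lies at chr7:97872458-97872487 on the minus strand, with its core 68 to 61 bases before the start site, and the CHAC1 match at chr15:40953251-40953280 on the plus strand, with its core 209 to 202 bases before the start site. The core of CHAC1 is read on the opposite strand. In GENCODE 44 the stretches fall in an exon of 3 of the 17 annotated ASNS transcripts and of 1 of the 3 CHAC1 transcripts.
ASNS: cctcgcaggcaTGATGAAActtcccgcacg
CHAC1: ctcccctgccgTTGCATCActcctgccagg
These letters were not in the windows of the other 8 genes, and sites farther away were not searched.

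ATF4 itself, the transcription factor of the response, was most abundant in the early lung libraries. In signature-positive cells it stood at 103 CPM (99.3 to 106) in culture, 233 CPM (228 to 238) at 6 h, 180.1 CPM (176 to 184) at 48 h, 57.7 CPM (55.8 to 59.6) at 2 months and 55.7 CPM (54.4 to 57.0) at 4 months. The 6 h and 48 h libraries lay above culture and the 2 month and 4 month libraries below it, with no overlap of the counting intervals except between the late pair. DDIT3 encodes CHOP, a transcription factor linked to cell death under lasting stress, and had the largest ratio of the 10 genes at 6 h. It stood at 7.56 CPM in culture (239 UMIs), 43.3 CPM at 6 h, 33.1 CPM at 48 h, 16.9 CPM at 2 months and 14.7 CPM at 4 months. All 4 lung libraries were above culture for DDIT3, unlike ATF4. A single parental cell held 38 of the 239 UMIs, and without it the culture stood at 6.37 CPM.

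CHAC1, an enzyme that degrades glutathione and one of the genes most closely tied to ATF4 and CHOP, stood at 10.2 CPM in culture, 25.2 CPM at 6 h, 19.45 CPM at 48 h, 3.03 CPM at 2 months and 2.775 CPM at 4 months. It thus passed from above the positive class of the culture early to below it late. All parental cells together held 4.105 CPM of CHAC1, and against them the late log2 ratios were -0.31 and -0.44. One cell of the 6 h library held 81 of its 815 CHAC1 UMIs, and the level without it was 22.7 CPM. ASNS, asparagine synthetase, stood at 15.7 CPM in culture, 40.7 CPM at 6 h, 42.1 CPM at 48 h, 13.9 CPM at 2 months and 11.3 CPM at 4 months, so both early libraries were above the positive class of the culture and both late ones below it, although all kept cells at 2 months (16.7 CPM) were slightly above all parental cells (15.6 CPM).

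SESN2, which represses the growth kinase complex mTORC1 when leucine is scarce, stood at 5.47 CPM in the positive class of the culture, 16.7 CPM at 6 h, 12.3 CPM at 48 h, 4.94 CPM at 2 months and 4.115 CPM at 4 months. Parental signature-negative cells held 13.7 CPM, close to the 48 h level, so the early difference for SESN2 depended on the class used as reference. TRIB3, a pseudokinase that restrains ATF4 and AKT signaling, had another course, with 28.1 CPM in culture, 21.4 CPM at 6 h, 38.9 CPM at 48 h, 20.2 CPM at 2 months and 9.02 CPM at 4 months. Its highest library was 48 h and its lowest 4 months.

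DDIT4 encodes REDD1, another inhibitor of mTORC1, which responds to hypoxia and glucocorticoids as well as to ATF4. It stood at 225 CPM in culture, 242 CPM at 6 h, 380.2 CPM at 48 h, 60.9 CPM at 2 months and 201 CPM at 4 months. The course had 2 high phases with a low 2 month library between them, which none of ATF4, DDIT3, CHAC1 and ASNS showed. The serine synthesis enzymes did not follow ATF4. PHGDH, the first enzyme of that pathway, stood at 56.3, 47.8, 46.4, 51.5 and 58.5 CPM from culture to 4 months, all within 1.5-fold of each other. PSAT1, the second enzyme, stood at 42.6 CPM in culture and at 6 h, 29.3 CPM at 48 h, 23.1 CPM at 2 months and 16.7 CPM at 4 months. VLDLR, a lipoprotein receptor and ATF4 target, was near the limit of detection, with 39 UMIs in culture and 11, 18, 6 and 81 UMIs in the lung libraries in order of time, at most 1.23 CPM, so its ratios are not read further.

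**Figure D1:**
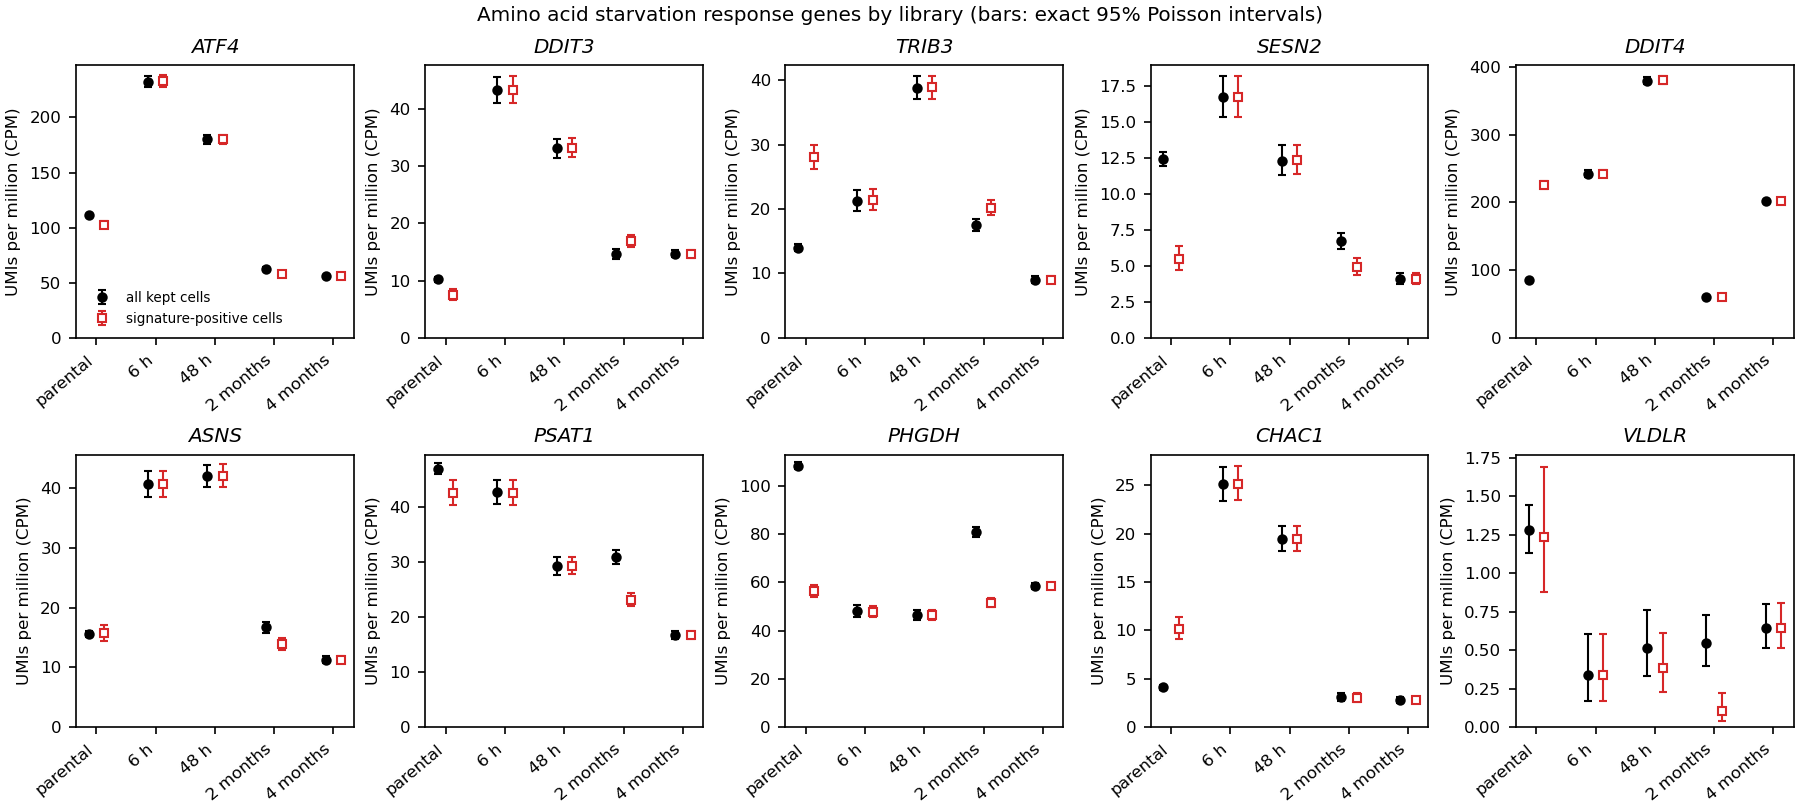
Level of each of the 10 genes (y axis, CPM) in the 5 libraries (x axis), for all kept cells (black circles) and signature-positive cells (red open squares), with exact Poisson intervals as bars. ATF4, DDIT3, CHAC1 and ASNS are highest at 6 h or 48 h, DDIT4 is high at 48 h (380.2 CPM) and again at 4 months (201 CPM), and the 2 parental symbols stand apart for DDIT4, TRIB3, SESN2, PHGDH and CHAC1.

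The first comparison asked what differed 6 h after injection from the same class in culture. Ratios are log2 ratios of CPM with 1 CPM added, which understates low genes, and a gene counts as past 2-fold among features with at least 10 CPM in either group. A feature under 10 CPM in 1 group enters only through its level in the other, which favors calls past 2-fold. The shares of all features include such features too. At 6 h DDIT3 and SESN2, at 7.56 and 5.47 CPM in culture, entered in this way. At 6 h, 5 of the 9 members at that level were at least 2-fold higher: DDIT3 (log2 ratio 2.37), SESN2 (1.45), ASNS (1.32), CHAC1 (1.23) and ATF4 (1.17). Of all 8054 features at that level, 11.4% were as much higher. None of the 9 was at least 2-fold lower, against 11.6% of features. Without the added CPM the ratios were 5.72 for DDIT3 (4.99 to 6.59), 3.06 for SESN2 (2.57 to 3.65), 2.59 for ASNS (2.34 to 2.88), 2.48 for CHAC1 (2.17 to 2.83) and 2.27 for ATF4 (2.17 to 2.36). TRIB3 (-0.38), DDIT4 (0.10) and PHGDH (-0.23) lay within 2-fold, and PSAT1 was at 0.999 times its level in culture (0.926 to 1.08). Over the 10 genes the log2 ratios had a median of 0.64, beside -0.02 over all features at that level.

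At 48 h against culture, 3 of 9 members were at least 2-fold higher, beside 14.0% of features. These were DDIT3 (1.99), ASNS (1.37) and SESN2 (1.04). DDIT3 and SESN2, under 10 CPM in culture, entered only through their 48 h level. None was at least 2-fold lower, beside 8.91% of features. CHAC1 (0.87), ATF4 (0.80) and DDIT4 (0.75) were higher by less than 2-fold, at 1.91 times (1.68 to 2.18), 1.75 times (1.68 to 1.83) and 1.69 times (1.64 to 1.73) their levels in culture. SESN2 was under 2-fold with 5 of 10 alternative settings. The median over the 10 genes was 0.78, beside 0.13 for all features. Against all parental cells instead of the positive class, 5 members were at least 2-fold higher at 48 h, with DDIT4 at 2.15, CHAC1 at 2.00 and TRIB3 at 1.41 joining DDIT3 and ASNS, while SESN2 was at -0.01 and PHGDH at -1.21. At 6 h the number was also 5 with all cells, with DDIT4 in place of SESN2 (0.40), and PHGDH was lower (-1.15). The share of all features past 2-fold was not counted with all cells, so these 2 counts have no reference. The median log2 ratio of all features was then -0.24 at 6 h and -0.09 at 48 h.

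Between 6 h and 48 h none of the 9 members was 2-fold higher and none 2-fold lower, beside 3.15% and 1.28% of features. TRIB3 (0.83) and DDIT4 (0.65) were higher at 48 h, and PSAT1 (-0.52), SESN2 (-0.41), DDIT3 (-0.38), ATF4 (-0.37) and CHAC1 (-0.36) were lower. ASNS differed by a ratio of 1.03, with an interval (0.963 to 1.11) that includes 1.

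The step from 48 h to 2 months put more members past 2-fold than the other steps between lung libraries. The same held for all features, with 6.64% higher and 13.4% lower at this step. From 6 h to 48 h these shares were 3.15% and 1.28%, and from 2 to 4 months 2.08% and 2.03%. Of 9 members, 5 were at least 2-fold lower at 2 months, beside 13.4% of features: DDIT4 (-2.62), CHAC1 (-2.34), ATF4 (-1.63), ASNS (-1.53) and SESN2 (-1.17). CHAC1 and SESN2, under 10 CPM at 2 months, entered only through their 48 h level. DDIT3 (-0.93) and TRIB3 (-0.91) were just under 2-fold lower. None was 2-fold higher, beside 6.64% of features, and PHGDH was at 1.11 times its 48 h level (1.05 to 1.17). The median over the 10 genes was -1.05, beside -0.16 over all features.

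Against culture, the 2 month cells had 1 of 8 members at least 2-fold higher, DDIT3 (1.06), beside 8.67% of features (under 2-fold with 2 of 10 alternatives), and 2 at least 2-fold lower, DDIT4 (-1.87) and CHAC1 (-1.47), beside 10.2% of features. DDIT3, under 10 CPM in culture, and CHAC1, under 10 CPM at 2 months, each entered only through the other group. With all kept cells DDIT4 (-0.49) and CHAC1 (-0.31) were inside 2-fold. The 4 month cells had none at least 2-fold higher, beside 7.96% of features, with DDIT3 at 0.87. At 4 months CHAC1 (-1.56), TRIB3 (-1.54) and PSAT1 (-1.30) were at least 2-fold lower, 3 of 8 members, beside 14.5% of features. CHAC1 and TRIB3, under 10 CPM at 4 months, entered only through their level in culture. With all kept cells CHAC1 (-0.44) and TRIB3 (-0.58) were inside 2-fold, and PSAT1 (-1.44) was not. ATF4 was lower than in culture by less than 2-fold in both late libraries, at 0.561 times (0.535 to 0.589) and 0.542 times (0.520 to 0.565). All 4 ratios to culture share the 1310 parental cells, so they are not independent of each other.

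From 2 to 4 months, DDIT4 was the 1 member of 7 that was at least 2-fold higher (1.71), beside 2.08% of features, and TRIB3 the 1 that was at least 2-fold lower (-1.08), beside 2.03% of features. TRIB3, under 10 CPM at 4 months, entered only through its 2 month level and was inside 2-fold with 3 of 10 alternative settings. DDIT4 stood at 3.30 times its 2 month level (3.19 to 3.42). ATF4 was at 0.965 times (0.926 to 1.01), which counting error alone covers.

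Within the culture, the signature-positive class differed from the other cells in 5 of the 9 members. DDIT4 (1.91), CHAC1 (1.48) and TRIB3 (1.22) were at least 2-fold higher, beside 12.8% of features. SESN2 (-1.18) and PHGDH (-1.05) were at least 2-fold lower, 2 of 9 members, which is near the 17.8% of all features. CHAC1, under 10 CPM in the negative class, and SESN2, under 10 CPM in the positive class, each entered only through the other class. CHAC1, SESN2 and PHGDH were each inside 2-fold with 1 of 9 alternative settings. ATF4 (-0.13), ASNS (0.01) and PSAT1 (-0.16) were within 2-fold. At 2 months, where 606 cells lacked the signature, PHGDH (-1.62), PSAT1 (-1.14) and SESN2 (-1.08) were at least 2-fold lower in the positive class, 3 of 8 members beside 21.4% of features, and none was as much higher, beside 18.8%. SESN2, under 10 CPM in the positive class at 2 months, entered only through the negative class. PHGDH and SESN2 were thus lower in the positive class in both libraries, whereas DDIT4 at 2 months stood at 60.9 and 58.7 CPM in the positive and the negative class. The signature-negative cells of the lung at 2 months had PHGDH at 161 CPM, beside 118 CPM in the same class of the culture.

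**Figure D2:**
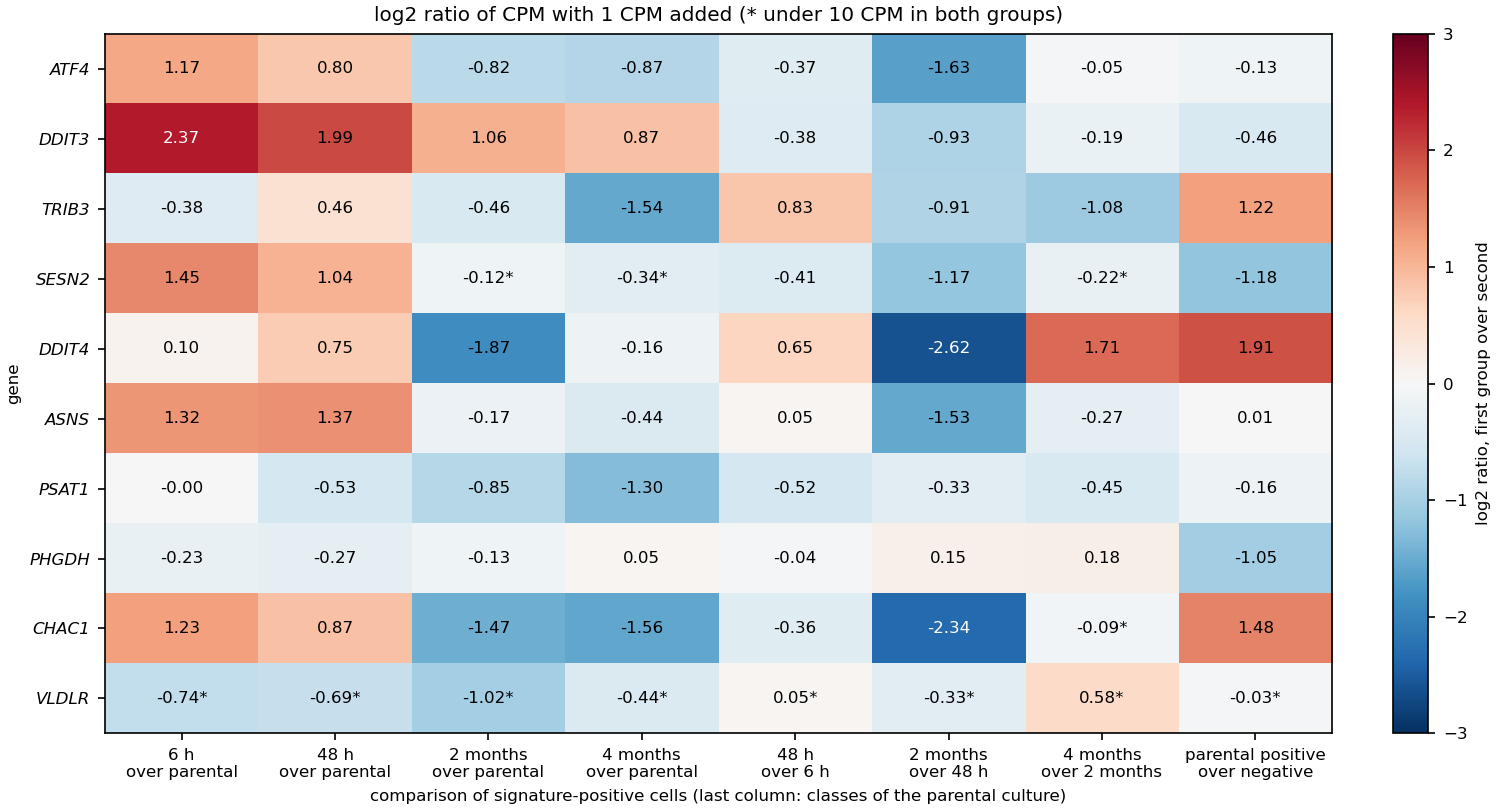
Log2 ratio of CPM (1 CPM added) of each of the 10 genes (rows) in the 7 comparisons of signature-positive cells and in the comparison of the 2 parental classes (columns), red for higher and blue for lower in the first group. The column of 2 months over 48 h is blue for every gene except PHGDH (0.15), and DDIT4 changes from -2.62 in that column to 1.71 in the next.

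Other targets of ATF4 were read from 4 lists. Of the amino acid transporters at 10 CPM or more, 3 of 8 were at least 2-fold higher at 6 h, beside 11.4% of features. At 48 h it was 4 of 8, beside 14.0% of features. SLC6A9, a glycine transporter, led at both times (1.99 and 1.90), but was at 2.72 CPM in culture and entered only through its lung level. SLC3A2 was second at 6 h (1.23) and SLC38A2 second at 48 h (1.30). SLC7A5, the leucine transporter subunit that pairs with SLC3A2, was lower than in the positive class of the culture in all 4 lung libraries (-0.93, -1.05, -1.90 and -1.69). This depended on the reference class. Over all kept cells SLC7A5 stood at 35.6 CPM in culture and 62.6, 57.5, 25.7 and 36.4 CPM in lung. The transporters had medians of 0.71 and 0.81 in the early libraries and of -0.01 and -0.16 in the late ones. SLC38A2, a glutamine transporter, went against the late medians, at 1.54 at 2 months and 1.46 at 4 months. The summed level of the list was above culture (512 CPM) in the late libraries too (737 and 633 CPM). SLC38A2 alone stood at 123 CPM in culture and 360.0 and 339.7 CPM late, so the higher sums do not describe the list as a whole.

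The 13 genes of the aminoacyl-tRNA synthetase list encode enzymes that charge transfer RNAs, apart from XPOT, a transfer RNA exporter. They had medians of 0.42, 0.60, -0.15 and -0.46 in the same order. At 48 h 4 of 13 were at least 2-fold higher, beside 14.0% of features, led by SARS (1.33) and MARS (1.26). At that time 0 of 13 were as much lower, beside 8.91% of features, while LARS was lowest at 6 h (-1.02). At 2 months against 48 h, 4 of 13 were at least 2-fold lower, beside 13.4% of features, with MARS (-1.45) and GARS (-1.32) lowest. Of the serine, one-carbon and proline enzymes, none of 7 was at least 2-fold higher at 6 h or 48 h, which is near the share of all features, with SHMT2 (0.73 and 0.74) and, at 48 h, PYCR1 (0.76) highest. The medians of the list were -0.53, -0.16, -0.50 and -0.61. In that list ASS1, which makes argininosuccinate, the precursor of arginine, from citrulline, was high at 2 months (2.76) and 4 months (2.70). Over all kept cells ASS1 differed less, with 28.1 CPM in culture and 52.2 and 55.6 CPM in the late libraries.

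Of the stress effectors, ATF3, a transcription factor, was at 4.47 at 6 h and 5.08 at 48 h, and PPP1R15A, which recruits the phosphatase that reverses eIF2alpha phosphorylation, at 3.12 and 3.32. Both genes are also known to be induced when tissue is dissociated. NUPR1, a stress-induced nuclear protein, was under 1 CPM in culture, at 6 h and at 48 h and stood at 21.0 CPM at 2 months and 29.2 CPM at 4 months. GDF15, a stress cytokine, was lower at 6 h than in the positive class of the culture (-2.01) and stood at 93.4 CPM at 2 months. Over all kept cells GDF15 was not lower at 6 h (5.50 CPM) than in culture (4.29 CPM). Among kinases and sensors, EIF2AK4, which encodes GCN2, was at 78.5 CPM in culture, 24.5 CPM at 6 h, 29.2 CPM at 48 h, 25.1 CPM at 2 months and 21.7 CPM at 4 months. EIF2AK3, another of these kinases, went the other way, at 5.54 CPM in culture and 9.79, 10.9, 9.39 and 6.77 CPM in the lung libraries in order of time. The 12 genes of this list summed to 375 CPM in culture and to 293, 342, 390 and 297 CPM in the lung libraries. SESN3, a relative of SESN2, was at 2.60 CPM in culture, 0.340 CPM at 6 h, 0.0643 CPM at 48 h, 41.6 CPM at 2 months and 29.5 CPM at 4 months, the reverse of the early and late order of SESN2.

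Genes of other stresses and of handling were read in the same cells. Of all features, 11.4%, 14.0%, 8.67% and 7.96% were at least 2-fold higher than culture in the lung libraries in order of time. Of 13 ER chaperone and degradation genes, 4 were at least 2-fold higher at 6 h and 4 at 48 h, with HERPUD1 (2.02) and HSPA5 (1.65) leading at 6 h, and CRELD2 at -1.13. All 11 tissue dissociation genes were at least 2-fold higher in both early libraries, and 9 and 10 of them in the late ones. Their summed level in positive cells was 937 CPM in culture, 4915 CPM at 6 h, 7639 CPM at 48 h, 3864 CPM at 2 months and 5736 CPM at 4 months, and no marker of the list was at 0. The size of the difference depended on the reference class, since parental signature-negative cells summed to 2339 CPM. Over all kept cells the sum was 2123 CPM in culture and 4922, 7641, 3612 and 5736 CPM in lung in order of time. In positive cells the sum at 4 months was above its level at 6 h, while ATF4, CHAC1 and ASNS were below culture and DDIT3 was above it (14.7 against 7.56 CPM). DDIT4, like the sum, was higher at 4 months (201 CPM) than at 2 months (60.9 CPM). The part of dissociation in the levels of the 10 genes was not tested. Of the glucocorticoid targets, 3 of 4 were at least 2-fold higher at 6 h and 4 of 5 at 48 h, with SGK1 at 4.67 and 4.68. G2 and mitosis genes had medians below 0 in every lung library, at -1.08, -1.64, -1.53 and -2.06.

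Hypoxia targets, like DDIT4, were lower at 2 months than at 48 h or 4 months. From 2 to 4 months 5 of 6 were at least 2-fold higher, beside 2.08% of features, led by NDRG1 (3.29) and EGLN3 (3.23). The median log2 ratios were 2.08 for the list and -0.20 for all features. At 6 h against culture the list went both ways, with ADM at 2.04 and BNIP3 at -1.55. Their summed level was 1606 CPM at 6 h, 1662 CPM at 48 h, 711 CPM at 2 months and 2540 CPM at 4 months. From 48 h to 2 months, 3 of 7 were at least 2-fold lower, beside 13.4% of features. Other lists were also lower at 2 months than at 48 h or 4 months in summed level. These were the dissociation genes, the glucocorticoid targets (1647 CPM at 48 h, 257 CPM at 2 months and 399 CPM at 4 months) and the stress effectors (1314, 742 and 887.5 CPM). The course of the stress effectors lay mostly in ATF3 (501, 109 and 224 CPM) and PPP1R15A (309, 98.8 and 166 CPM), both also induced by dissociation. Other genes of that list lacked it, among them EIF4EBP1 (211, 228 and 243 CPM) and GDF15 (12.15, 93.4 and 29.4 CPM). Which of these lists goes with the course of DDIT4 was not tested. The core of the hypoxia response element (ACGTG or GCGTG) occurred in the promoter windows of 8 of the 10 genes, DDIT4 among them, and of 52.4% of all genes.

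**Figure D3:**
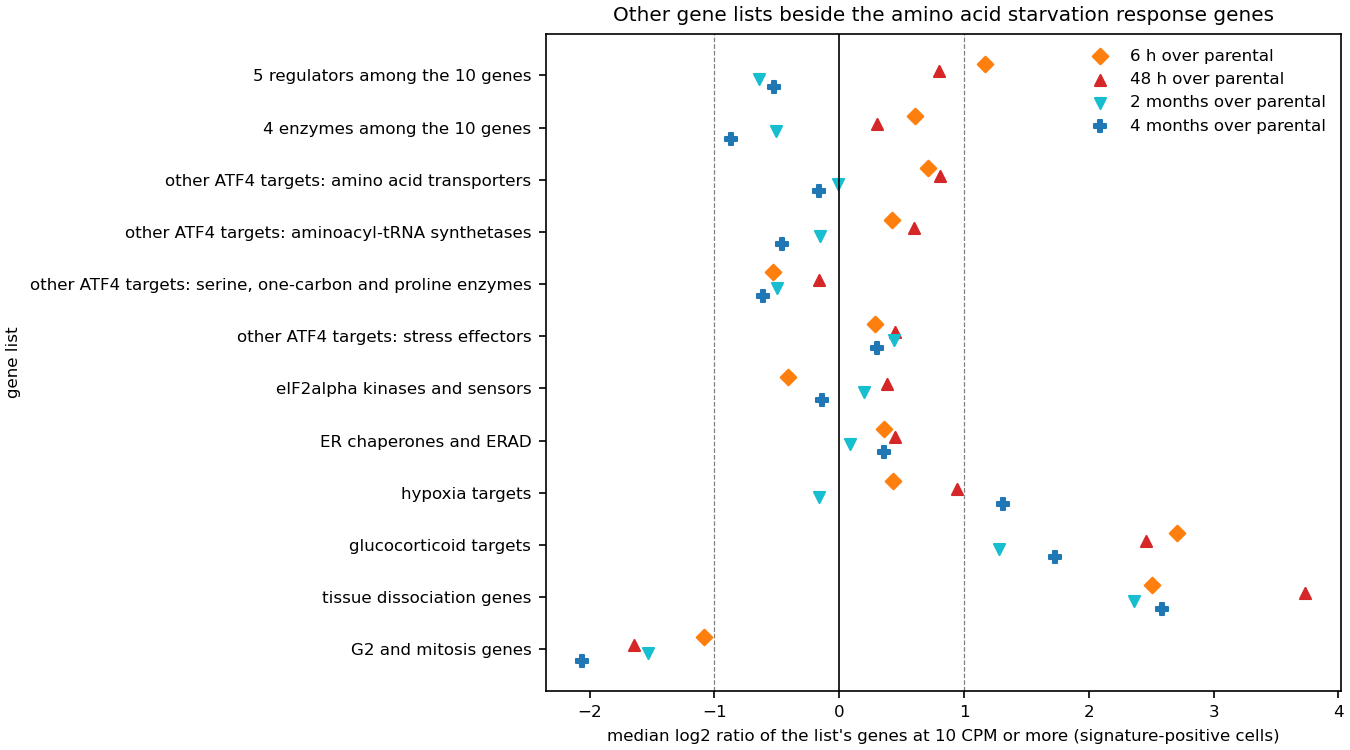
Median log2 ratio to parental cells (x axis) of the regulators and enzymes among the 10 genes and of 10 other gene lists (rows), in signature-positive cells of the 4 lung libraries (symbols), counting genes that reached 10 CPM in at least 1 of both groups. Amino acid transporters and aminoacyl-tRNA synthetases show early medians above 0.4 and late medians at or below 0, whereas tissue dissociation genes are above 2 in all 4 lung libraries.

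Per cell, the shares with a UMI were compared after thinning cells to 5000 UMIs, since a share grows with depth. Shallower cells were left out, so that 1646 of 1922 positive cells remained at 6 h and 1293 of 1310 in culture. The 6 h shares and correlations thus describe its deeper cells. Among these, the summed count of the 10 genes rose with depth before thinning (r = 0.294). ATF4 was detected in 37.5% of parental positive cells (34.9 to 40.2), in 56.3% of the 6 h cells and 56.2% of the 48 h cells, and in only 23.8% and 24.1% of the 2 month and 4 month cells. Before thinning the 6 h share (71.7%) was below that of culture (80.5%), which goes with the lower depth of that library. DDIT3 was detected in 2.78% of thinned cells in culture, in 14.3% and 14.1% of the early cells and in 7.39% and 7.09% of the late cells. For both genes the equal shares at 6 h and 48 h contrast with the higher CPM at 6 h. The variance-to-mean ratio of DDIT3 over thinned cells was 2.21 at 6 h and 1.54 at 48 h, and that of CHAC1 3.55 and 1.46. Counts of these genes were thus spread less evenly over cells at 6 h, whereas ATF4 had similar ratios (1.70 and 1.66). The 6 h cell with the most member UMIs held 15 of CHAC1 and 9 of DDIT3, the largest thinned counts of both genes there. The ratios without that cell were not computed.

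CHAC1 was detected in 4.41% of thinned cells in culture and then, by time, in 6.68%, 7.29%, 1.04% and 1.46%. ASNS was found in 7.35%, 14.6%, 15.9%, 5.57% and 5.24% in the same order. DDIT4 was detected in 39.5% of the 6 h cells (37.1 to 41.9), a share below the lower bound of the culture (50.2%) although the CPM was slightly higher, and in 58.1%, 19.7% and 43.7% at the later times. VLDLR never exceeded 1.01% in these groups. No cell type known to lack these genes was present in number, so a background from free RNA could not be measured.

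Co-expression over single cells was weak everywhere at this depth and is given as a description. Over the 45 pairs, the median Pearson r of log2(count + 1) was 0.028 in parental negative cells (n = 7512) and 0.033 in parental positive cells (n = 1293). In lung cells it was 0.063 for 6 h (n = 1646), 0.032 for 48 h (n = 1043), 0.105 for 2 months (n = 2584) and 0.037 for 4 months (n = 4103). Pairs with r above 0.1 numbered 0, 3, 18, 6, 25 and 5 in these groups. At 6 h the highest pairs were DDIT3 with CHAC1 (0.272), DDIT3 with DDIT4 (0.240) and DDIT4 with CHAC1 (0.220), and PHGDH was the gene with the lowest pair (-0.090, with DDIT4). At 48 h the highest pairs were those of the synthesis enzymes, ASNS with PSAT1 (0.203) and PSAT1 with PHGDH (0.175), while DDIT3 with CHAC1 was at -0.002. These points share a library and, by thinning, a depth.

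**Figure D4:**
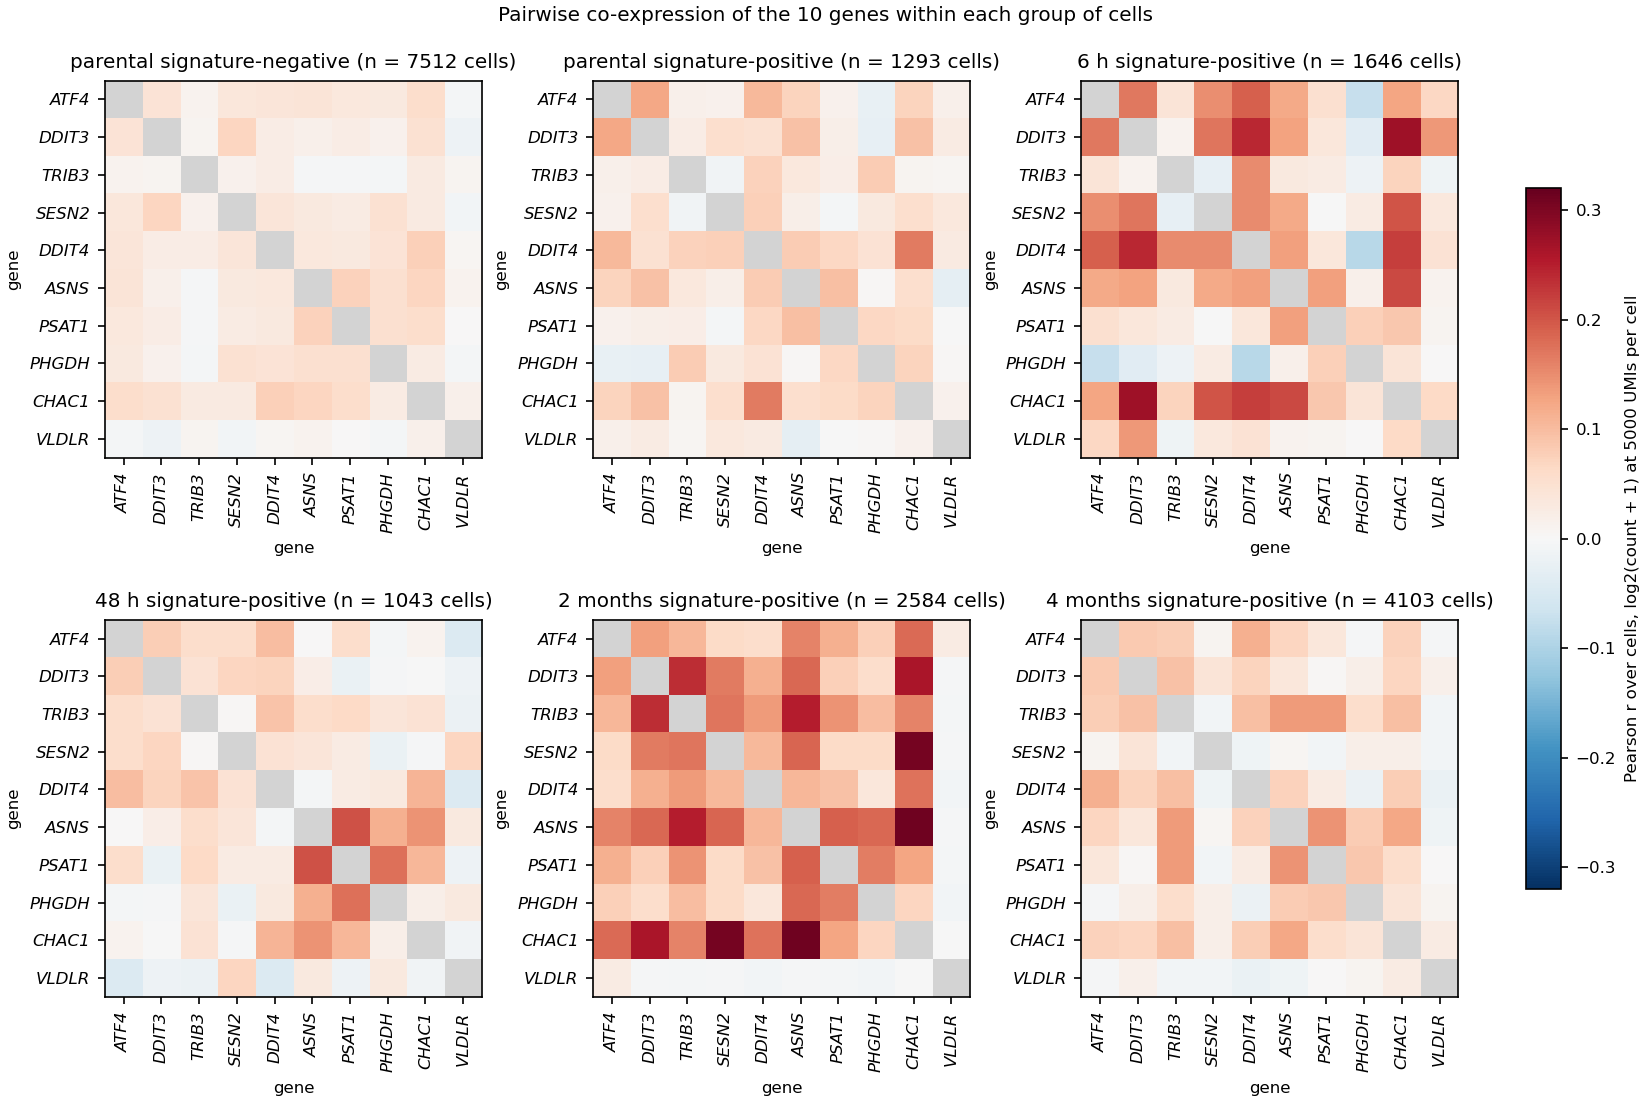
Pearson r over cells (color) for each pair of the 10 genes (both axes) in 6 groups of cells thinned to 5000 UMIs. The 5 darkest fields at 6 h pair CHAC1 with DDIT3, DDIT4, ASNS and SESN2 and DDIT3 with DDIT4, while TRIB3 with DDIT3 is pale (0.010), and at 48 h the darkest are ASNS with PSAT1 and PSAT1 with PHGDH.

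At 2 months the members were found in fewer cells, and the top cells held a larger share of their UMIs. No UMI of any of the 10 was found in 40.5% of thinned cells, against 16.5% in the positive class of the culture, 16.1% and 9.01% in the early libraries and 28.4% in the 4 month library. The 26 cells with the most member UMIs (the top 1%) held 12.2% of all member UMIs at 2 months, while the top 1% of the other groups held 4.16% (48 h) to 8.92% (4 months). Without the highest cell of each group the share was 9.80% at 2 months and 8.59% at 4 months. The mean summed count per thinned cell was 1.27 at 2 months, 1.97 at 4 months and 3.88 at 48 h. Such a share tends to be larger where counts are low, and the part of the low counts was not tested. ASNS and CHAC1 occurred in the same cell 7.31 times as often as independent detection would give at 2 months, 5.09 times at 4 months, 2.12 times at 6 h and 1.82 times at 48 h. In parental negative and positive cells it was 2.39 and 1.91 times. Such a ratio can be larger where detection is rarer (ASNS in 5.57% of cells at 2 months and 14.6% at 6 h), so its size is not compared between libraries. The 2 month value rests on 11 cells, and the 4 month value on 16 cells against 3.14 expected. SESN2 with CHAC1 was found in 6 cells at 2 months against 0.616 expected and in 5 cells at 48 h against 5.32 expected, counts too small to compare closely.

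The highest cell at 2 months held 97 member UMIs of 5000, with 26 of TRIB3, 25 of ASNS, 13 of DDIT4, 10 of DDIT3, 7 of SESN2 and 6 of CHAC1. The highest cell at 4 months held 42, all of DDIT4. Without the highest cell of each group, the median r differed by less than the width that the number of cells gives in all 6 groups. Cells with a CHAC1 UMI held 7.92 times as many UMIs of the other 9 genes as cells without one at 2 months, 2.43 times at 4 months, 2.25 times at 6 h and 1.34 times at 48 h. The 2 month ratio rests on 27 cells with CHAC1 and was 5.24 without the highest cell. For PHGDH the same ratio was 0.875 at 6 h and 1.81 at 2 months.

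**Figure D5:**
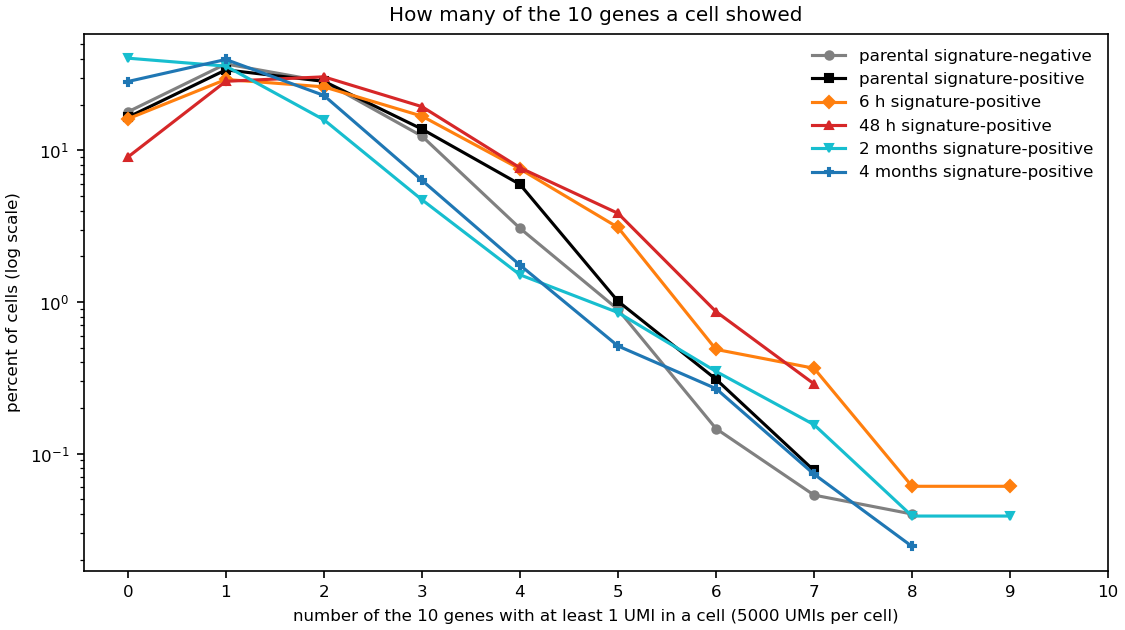
Percent of cells (y axis, log scale) by how many of the 10 genes had at least 1 UMI (x axis) in 6 groups of cells thinned to 5000 UMIs. The 6 h and 48 h cells lie above the other groups from 3 genes to 6, with 4.07% and 4.99% of cells showing 5 or more genes beside 1.39% of parental positive cells.

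The summed count of the 10 genes in a cell varied with other lists, in different ways by library. At 6 h it had r = 0.465 with the amino acid transporters, 0.447 with the dissociation genes, 0.447 with the glucocorticoid targets and -0.193 with the hypoxia targets, and r = 0.294 with the depth of the cell before thinning. At 4 months the values were 0.099, -0.014, 0.046 and 0.233, and -0.086 with depth. DDIT4 alone had r = 0.345 with the hypoxia targets at 4 months and -0.071 at 6 h, where it had 0.386 with the dissociation genes and 0.394 with the glucocorticoid targets.

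The 15 genes whose counts followed the summed members most closely, by the median r over the 6 groups among 5145 genes at 10 CPM or more in every group, were EIF1, SLC3A2, TARS, CEBPG, MTHFD2, ZFAS1, SNHG7, EIF2S2, GARS, TAF1D, H3F3B, BTG1, MARS, TNFRSF12A and EPB41L4A-AS1. Their medians ran from 0.200 for EIF1, a factor of start codon selection, to 0.106 for EPB41L4A-AS1, beside a median of 0.012 over all 5145. SLC3A2 (0.187), TARS (0.155), CEBPG (0.135), MTHFD2 (0.135), GARS (0.119) and MARS (0.113) were on the lists of other ATF4 targets, 6 of the 15, beside 31 (0.603%) of all 5145 ranked genes. EIF2S2 encodes the beta subunit of the factor that the starvation kinases phosphorylate. ZFAS1, SNHG7, TAF1D and EPB41L4A-AS1 host small nucleolar RNAs, a property seen after the genes were ranked. In parental negative cells none of the 15 exceeded 0.110, and at 6 h H3F3B (0.456), SNHG7 (0.431) and BTG1 (0.421) were highest.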

How the data were processed

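The authors deposited counts of UMIs per gene and barcode from 3′ droplet libraries, unfiltered for quality and not normalized. The submitters' processing notes name Cell Ranger 3 and GRCh38, and the matrix headers version 3.0.2. Of each library's called barcodes 55.0% to 94.4% passed the filter, which is the one the study states. Depth per library was 32540023 to 204864006 UMIs in kept cells. A gene of the rule for signature-positive cells and a gene list are not reported here. The 10 genes and the gene lists were chosen with earlier results of these data known.

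UMIs were summed over cells and scaled to CPM. Log2 ratios had 1 CPM added, and features with at least 10 CPM in either group were counted past 2-fold. Each cell was thinned without replacement to 5000 UMIs for shares and correlations, which left out 105 to 395 shallower cells per library. Doublets were kept, and an alternative left out the 5% of kept cells with the most UMIs. All 10 genes are named, and the rule for each list names the 2 highest and 2 lowest ratios, of which the text gives a part. Other list genes given by level, and single pairs and cells, were chosen after their values were seen. Gene list sums, shares and correlations carry no p-value, because cells are not replicates. Promoter windows come from RefSeq on GRCh38.p14 and were matched by symbol for 10 of 10 genes. Python 3.11.15, NumPy 2.4.6, SciPy 1.17.1, pandas 2.3.3 and matplotlib 3.10.9 were used, and the computations were tested on simulated data. The study's bulk RNA, protein and tissue measurements were not used here.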

Additional observations from a re-analysis of the deposited data

Results flagged for a closer look

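DDIT3 was lower in the signature-positive than in the signature-negative class of the culture (log2 ratio -0.46, 7.56 against 10.75 CPM) and higher in the positive class at 2 months (0.95, 16.9 against 8.28 CPM). Both counting intervals excluded a ratio of 1, and the difference between the libraries was not tested, since each is 1 library. In the culture a single signature-negative cell held 187 of 1862 DDIT3 UMIs and a single positive cell 38 of 239, and without them the levels were 9.67 and 6.37 CPM.

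Barcodes over the mitochondrial limit, which entered no comparison, held more DDIT3, in CPM, than the kept cells in 3 of 5 libraries. The DDIT3 level was 63.6 CPM at 6 h (kept cells 43.2), 53.1 CPM at 48 h (33.1) and 20.4 CPM at 4 months (14.7), whereas it was lower at 2 months, with 10.2 CPM (14.6), and in culture, with 6.64 CPM (10.3). ATF4 stood at 217 CPM in them at 48 h, against 180.0 CPM in kept cells and 92.2 CPM in such barcodes of the culture. In the other libraries the counting intervals of these barcodes and of kept cells overlapped. The levels there were 222 against 232.5 CPM at 6 h and 92.2 against 111 CPM in culture. At 2 months they were 61.6 against 62.4 CPM and at 4 months 58.8 against 55.7 CPM. Most members were lower in these barcodes than in kept cells, namely 6 of 10 in culture and 8, 7, 10 and 7 of 10 in the lung libraries in order of time, among them CHAC1 at 6 h (10.8 against 25.1 CPM) and ASNS at 48 h (17.3 against 42.1 CPM). A large part of the totals of these barcodes is mitochondrial UMIs (medians of 45.6% to 84.8% by library), which lowers the CPM of other genes. The share of all features lower in these barcodes was not counted, so the counts of members have no reference. The part of RNA loss in these levels was not tested.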

How the results depend on the processing

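No paired analysis was possible because each group is 1 library, and no library could be left out. Of 190 alternative counts of members past 2-fold, 167 were equal to the reported count or within 1.5 times of it and 23 were not. The share of all features was not counted under the alternatives, so the counts that follow show only how the reported ones moved. With all kept cells in place of the positive class, members higher numbered 5 at 48 h, 0 at 2 months and 1 at 4 months against culture, and members lower 1 at 6 h, 1 at 48 h and 0 at 2 months against culture and 0 at 4 months against 2 months. SESN2 at 48 h against culture then turned from 1.04 to -0.01. With 5 CPM added, 0 were higher and 1 lower at 2 months against culture, 0 lower at 4 months against 2 months, and 1 lower between the parental classes. With median-of-ratios size factors, 1 was higher at 4 months against culture, 1 lower at 2 months against culture, 0 lower at 4 months against 2 months and 1 lower between the parental classes. With each cell weighing the same, 1 was higher at 48 h against 6 h, 1 higher at 4 months and 1 lower at 2 months against culture. Without the cells of most UMIs, 1 was lower at 2 months against culture. At 1.5-fold, 2 were higher at 48 h against 6 h, 6 higher at 48 h, 1 higher at 4 months and 4 lower at 2 months against culture. Under each alternative ASNS (1.14 to 1.42), ATF4 (1.04 to 1.28) and DDIT3 (1.94 to 2.49) stayed past 2-fold at 6 h against culture, and CHAC1 (0.91 to 2.35) fell short with equal cell weights and with 5 CPM added. The median r over pairs was larger when all UMIs were scaled to 10000 per cell without thinning, at 0.062 in parental negative cells and at 0.120, 0.139, 0.170 and 0.089 in lung cells in order of time, where depth still differs between cells. Leaving out barcodes shared between libraries, Spearman correlation and leaving out the highest cell (also for co-detection) were chosen after seeing the data. VLDLR, at 6 to 81 UMIs in lung cells, is limited by depth.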
